A study of Mus musculus with 39 samples.

Results

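H3K27me3 peak lists were compared between 2 sorted populations of naive extra-embryonic endoderm (nEnd), a mouse stem cell culture that models the primitive endoderm of the blastocyst. The comparison used 6 of the 39 samples of the series: 3 libraries of cells positive for OCT4-mCherry alone (Oct4+) and 3 of cells positive for both OCT4-mCherry and PDGFRA (DP). Both populations came from 1 untreated OCT4-mCherry reporter line, which was converted from embryonic stem cells and expanded on feeder fibroblasts in RACL medium with LIF, the GSK3 inhibitor CHIR99021 and Activin A, and they were separated by FACS. Libraries were made by CUT&Tag, a method that tethers a transposase to an antibody-bound histone mark so that the DNA nearby is cut and tagged. The study states biological replicates for its experiments in general, and the labels do not say whether the 3 libraries of a population came from separate cultures. The members were all peaks of these 6 lists, read gene by gene over 21911 protein-coding genes.

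H3K27me3 is laid down by Polycomb repressive complex 2 and marks genes that are held silent in a given cell type. In pluripotent cells it is known to cover CG-rich promoters of developmental regulators, among them the Hox genes and the genes of lineages that the cells have not entered. Gata6, Gata4, Sox17 and Sox7 encode the transcription factors of primitive endoderm, and OCT4 and NANOG are core regulators of pluripotency. PDGFRA, the receptor used for sorting, is itself a marker of primitive endoderm.

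Promoters of endoderm regulators were among those with listed H3K27me3 in every Oct4+ library and in no DP library. Gata4, Gata6, Sox17 and Sox7 each had a promoter peak in 3 of 3 Oct4+ libraries and in 0 of 3 DP libraries, as did Col4a1 and Col4a2, which encode the chains of type IV collagen in basement membrane. The reverse pattern held at Fgf4, the FGF ligand made by epiblast cells, Nr5a2, a nuclear receptor of the pluripotency network, and Foxd3, a forkhead factor of pluripotent and neural crest cells. Nanog and Pou5f1, which encodes OCT4, had no promoter peak in any of the 6 libraries. Overlap with the gene body gave the same call at each of these genes.

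A gene was called only where a peak overlapped a promoter, by at least 1 base, in all 3 libraries of a population and in none of the other. A promoter ran from 1 kb upstream to 100 bases downstream of any annotated transcription start site (TSS) of the gene. With all listed peaks, 317 genes were called DP only, which is 1.45% of those tested, and 56 were called Oct4+ only, which is 0.256%. The lists differed in length, so the calls were repeated with the 1629 peaks of highest total signal from each list, as many as the shortest list held. With equal list lengths, 221 genes (1.01%) were DP only and 133 (0.607%) were Oct4+ only. Both settings together kept 84 DP-only genes (0.383%) and 16 Oct4+-only genes (0.073%). Single genes were not tested, since an exact permutation test of 3 libraries against 3 cannot give a p below 0.1.

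The following 6 promoters are shown because they carry the contrast: Pth1r and P4ha2 were listed in Oct4+ libraries only, Fgf4, Foxd3 and Nr5a2 in DP libraries only, and Gata2 in all 6. Each is the run of 250 bases before a RefSeq start site (GRCm38.p6), 5′ to 3′ on the strand of the gene, with every CG dinucleotide in capitals. CG dinucleotides are shown because CG-rich promoters are the known targets of Polycomb. The windows lie at chr9:110743687-110743936 (Pth1r, minus strand), chr11:54100674-54100923 (P4ha2, plus), chr7:144861136-144861385 (Fgf4, plus), chr4:99656049-99656298 (Foxd3, plus), chr1:136953631-136953880 (Nr5a2, minus) and chr6:88193641-88193890 (Gata2, plus).
Pth1r: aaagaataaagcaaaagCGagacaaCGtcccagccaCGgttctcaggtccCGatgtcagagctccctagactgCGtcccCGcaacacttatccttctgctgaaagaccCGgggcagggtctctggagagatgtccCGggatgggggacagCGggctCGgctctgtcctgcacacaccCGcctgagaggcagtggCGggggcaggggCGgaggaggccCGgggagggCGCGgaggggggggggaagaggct
P4ha2: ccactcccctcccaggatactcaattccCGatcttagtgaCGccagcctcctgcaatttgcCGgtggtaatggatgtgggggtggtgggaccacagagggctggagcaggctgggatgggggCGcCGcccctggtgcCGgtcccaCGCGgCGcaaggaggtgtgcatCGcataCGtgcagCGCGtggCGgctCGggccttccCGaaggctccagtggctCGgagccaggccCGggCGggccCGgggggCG
Fgf4: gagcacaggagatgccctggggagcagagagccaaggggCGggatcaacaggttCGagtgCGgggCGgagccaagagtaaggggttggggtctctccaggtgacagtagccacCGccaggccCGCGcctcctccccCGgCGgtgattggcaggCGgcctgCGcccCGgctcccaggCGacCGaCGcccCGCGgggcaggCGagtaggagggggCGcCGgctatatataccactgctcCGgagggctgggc
Foxd3: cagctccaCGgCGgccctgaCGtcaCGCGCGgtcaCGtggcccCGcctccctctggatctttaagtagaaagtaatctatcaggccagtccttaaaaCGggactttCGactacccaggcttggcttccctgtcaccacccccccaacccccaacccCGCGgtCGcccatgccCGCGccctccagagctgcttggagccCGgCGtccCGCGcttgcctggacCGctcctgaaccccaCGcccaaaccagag
Nr5a2: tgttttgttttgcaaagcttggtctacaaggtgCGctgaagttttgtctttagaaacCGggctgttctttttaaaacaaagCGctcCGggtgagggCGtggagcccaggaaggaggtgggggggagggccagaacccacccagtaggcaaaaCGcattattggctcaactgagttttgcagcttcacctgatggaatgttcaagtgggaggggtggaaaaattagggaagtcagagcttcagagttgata
Gata2: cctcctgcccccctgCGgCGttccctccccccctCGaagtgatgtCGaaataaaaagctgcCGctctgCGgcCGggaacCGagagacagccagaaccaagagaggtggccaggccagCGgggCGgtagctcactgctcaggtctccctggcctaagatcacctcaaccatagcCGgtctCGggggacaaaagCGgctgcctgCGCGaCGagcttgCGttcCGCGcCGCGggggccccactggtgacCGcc

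The printed stretch of Nr5a2 held 6 CG dinucleotides, fewer than that of any of the other 5 promoters shown, which held 16 at Pth1r, 21 each at P4ha2, Fgf4 and Foxd3, and 22 at Gata2. Across RefSeq promoters, taken from 250 bases before to 50 after the start and classed by the same rule, Oct4+-only promoters were CG-rich and DP-only promoters less so. The median over genes was 21 CG dinucleotides (quartiles 12 and 28.5, 51 genes) for Oct4+-only promoters and 9 (quartiles 4 and 22, 315 genes) for DP-only promoters. Promoters listed in all 6 libraries had a median of 22 (quartiles 14 and 30, 692 genes), and all 27025 RefSeq genes had a median of 7. At least 10 CG dinucleotides were present at 82.4% of the Oct4+-only, 49.5% of the DP-only and 86.7% of the all-library genes, against 44.4% of all genes. Of 34 genes named by rule, 23 were in the RefSeq promoter table.

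The 6 lists varied widely in length and width within each population. DP libraries listed 3798, 8672 and 6418 peaks and Oct4+ libraries 1629, 2948 and 5785, so that 1 Oct4+ library was within the DP range. The means were 6296 ± 2439 and 3454 ± 2124 peaks (SD, n = 3 each), with an exact permutation test, two-sided, giving p = 0.2 and, over 6 measures, an adjusted p = 0.36. Peaks covered 52.7, 73.1 and 40.1 Mb in DP and 5.51, 15.3 and 53.8 Mb in Oct4+ libraries (exact permutation p = 0.3, adjusted p = 0.36). Median widths were 11384.5, 6264 and 4859 bases in DP and 3102, 4414 and 7374 bases in Oct4+ libraries (exact permutation p = 0.4, adjusted p = 0.4). The share of peaks over a promoter was 58.6% ± 11.4 in DP and 71.9% ± 5.82 in Oct4+ libraries (exact permutation p = 0.2, adjusted p = 0.36), a difference of -13.3 percentage points that changed sign with equal list lengths, to 0.225 points. Genes with a promoter peak numbered 2954, 4318 and 3428 in DP and 1217, 2191 and 3830 in Oct4+ libraries (exact permutation p = 0.3), and genes with a gene body peak 3256, 4879 and 3877 against 1400, 2405 and 4202 (exact permutation p = 0.3). No measure passed a threshold of 0.05, and the smallest p that 3 libraries against 3 allow is 0.1.

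**Figure D1:**
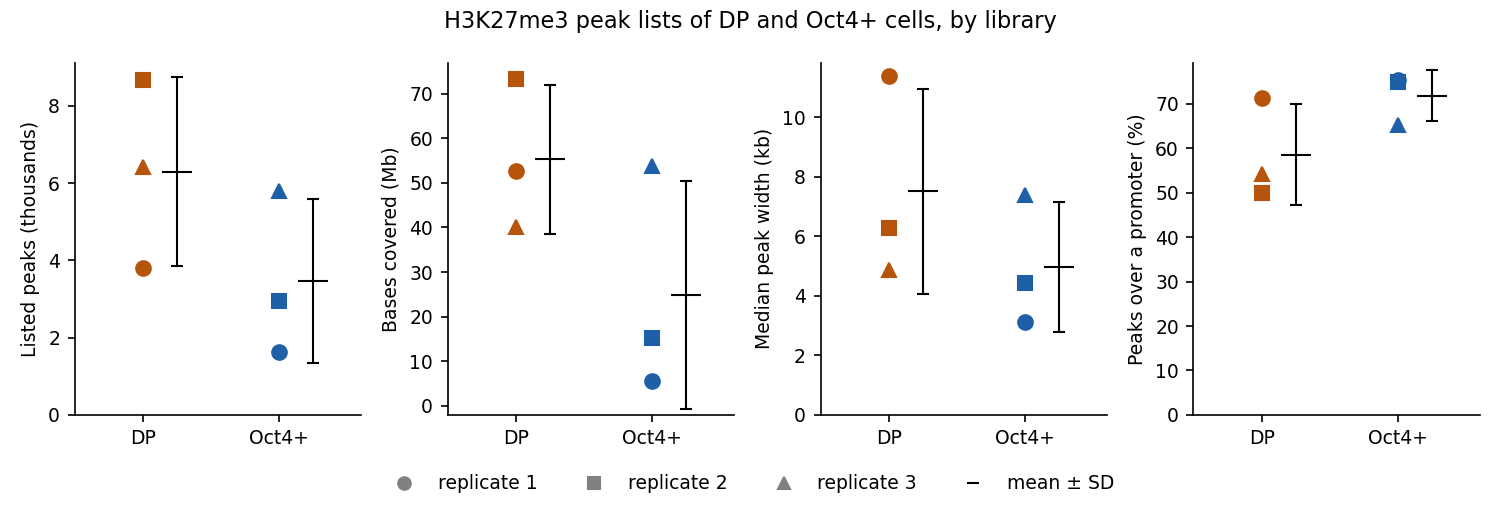
Number of listed H3K27me3 peaks, bases covered, median peak width and share of peaks over a promoter in each DP and Oct4+ library (points, shape by replicate), with the mean and SD of 3 libraries beside them. The populations overlap in each panel, and Oct4+ replicate 1 has the fewest peaks (1629) and the narrowest (3102 bases).

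Sequencing depth was unknown. The weakest peak of each list had a total signal, in coverage summed over bases, of 52608, 16476 and 13383 in DP and 8165, 13162 and 23885 in Oct4+ libraries. Absence from a list does not show that a promoter lacked H3K27me3, and in sorted bulk cells a smaller share of marked cells and less mark per cell cannot be told apart. No pair of the 6 lists shared more than 1 peak with identical bounds, so no library was a copy of another.

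Likeness between libraries was measured by the base-pair Jaccard index, the bases shared by 2 lists over the bases covered by either. DP libraries were alike, with indices from 0.461 to 0.487. Oct4+ libraries ranged from 0.102 to 0.292. Oct4+ replicate 3 had indices of 0.347 to 0.353 with the 3 DP libraries, 0.277 with Oct4+ replicate 2 and 0.102 with Oct4+ replicate 1. The index cannot exceed the shorter covered length over the longer. Oct4+ replicates 1, 2 and 3 covered 5.51, 15.3 and 53.8 Mb, so these indices do not show which population replicate 3 resembled more. With equal list lengths, where covered lengths still differed, its indices were 0.322 to 0.336 with DP, 0.318 with Oct4+ replicate 2 and 0.148 with Oct4+ replicate 1. The mean was 0.471 within DP, 0.223 within Oct4+ and 0.218 between populations, and the mean within less the mean between was 0.129 (one-sided exact permutation p = 0.1, the smallest that 10 partitions allow). With equal list lengths this difference was 0.164.

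**Figure D2:**
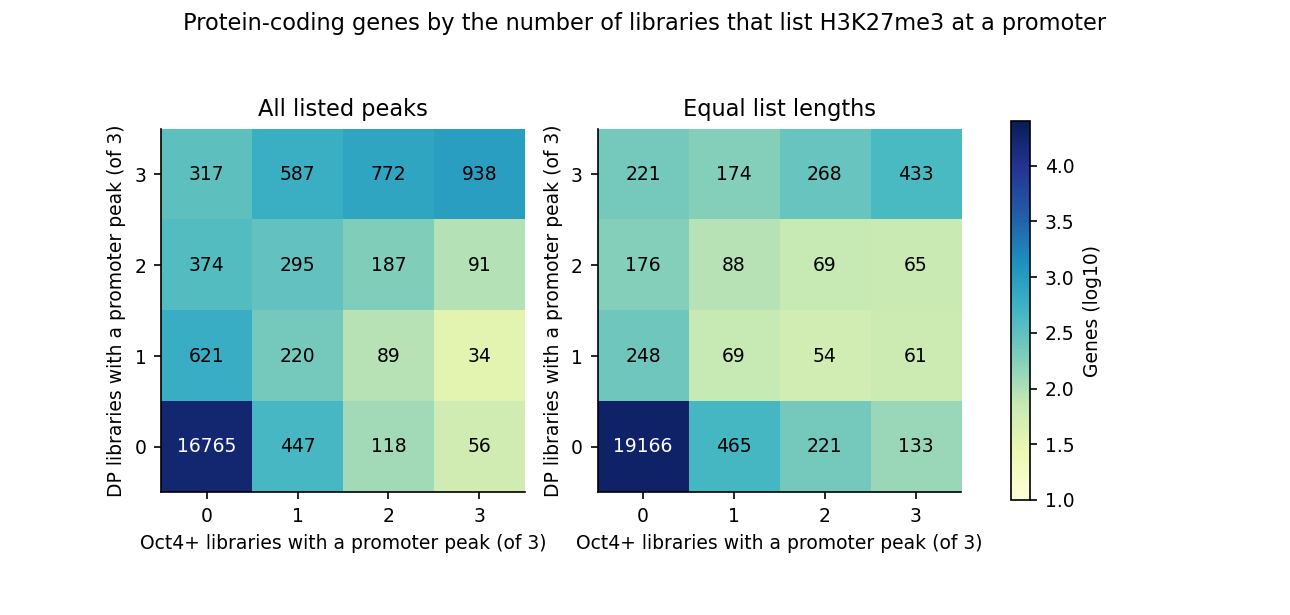
Number of protein-coding genes by how many DP libraries (vertical axis, 0 to 3) and Oct4+ libraries (horizontal axis, 0 to 3) list an H3K27me3 peak at a promoter, with all peaks (left) and equal list lengths (right), colour on a log10 scale. The upper left corner holds the DP-only genes (317 and 221), the lower right corner the Oct4+-only genes (56 and 133), and the upper right corner the genes listed in all 6 (938 and 433).

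With all peaks, 5146 genes had a promoter peak in at least 1 library, of which 1068 were listed in 1 library alone and 938 in all 6. Equal list lengths left 2745 genes with a promoter peak, of which 433 were listed in all 6. Of the 133 genes called Oct4+ only with equal list lengths, 88 had a promoter peak in all 3 DP libraries when every peak was used, and 16 had none. Of the 221 genes called DP only with equal list lengths, 84 had no Oct4+ peak when every peak was used, 99 had a peak in 1 Oct4+ library and 38 in 2. By gene body, 405 genes (1.85%) were DP only and 57 (0.26%) Oct4+ only with all peaks. The corresponding counts were 260 (1.19%) and 161 (0.735%) with equal list lengths, and 101 (0.461%) and 19 (0.0867%) in both settings.

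Single libraries set these counts. Leaving out a library can only add calls among those listed here, since fewer lists have to carry or lack the peak. DP-only promoter calls rose to 546 without DP replicate 1 and to 903 without Oct4+ replicate 3. Oct4+-only promoter calls rose to 167 without Oct4+ replicate 1. Gene body calls rose to 705 and 1041 (DP only) without the same libraries, and to 182 (Oct4+ only) without Oct4+ replicate 1 and 89 without DP replicate 2.

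Of 20 transcription factors of endoderm, 5 were Oct4+ only in both settings (25%, against 0.256% of all genes with all peaks) and 0 were DP only. They included Gata4 and Gata6, zinc finger factors that start the endoderm programme, and Sox17 and Sox7, HMG-box factors that act after them. Foxa2, a forkhead factor of the endoderm chosen after its values were seen, was listed in 2 Oct4+ libraries and in no DP library. Gata5 and Lhx1, by contrast, were listed in all 6 libraries in both settings, and Hnf4a, Foxa3, Klf6, Sall1 and Creb3l2 in none. DP libraries listed 5, 7 and 7 of the 20 and Oct4+ libraries 8, 11 and 15. The median difference in libraries listed (DP minus Oct4+) was 0 over the list and 0 over all genes.

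The Gata4 peak ranked 405th of 1629, 1553rd of 2948 and 498th of 5785 by total signal in Oct4+ replicates 1, 2 and 3, with widths of 3.83, 3.59 and 16.3 kb. The Sox17 peak ranked 183rd, 918th and 389th, with widths of 3.76, 2.65 and 11.9 kb. Both genes ranked lowest in the list of replicate 2 and had their widest peak in replicate 3. The Gata4 peaks lay inside the annotated gene (chr14:63198922-63271692), over a downstream start site, with replicate 1 at chr14:63244334-63248163. At the annotated gene start alone, 1 of 3 Oct4+ libraries listed Gata4, and 2 of 3 listed Sox17 and Gata6. Sox7 then remained the 1 Oct4+-only member of the 20, and no DP library listed any of these 5 genes at any start. Without Oct4+ replicate 3, 1 of the 20, Prdm1, was DP only, against 903 of all 21911 genes.

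**Figure D3:**
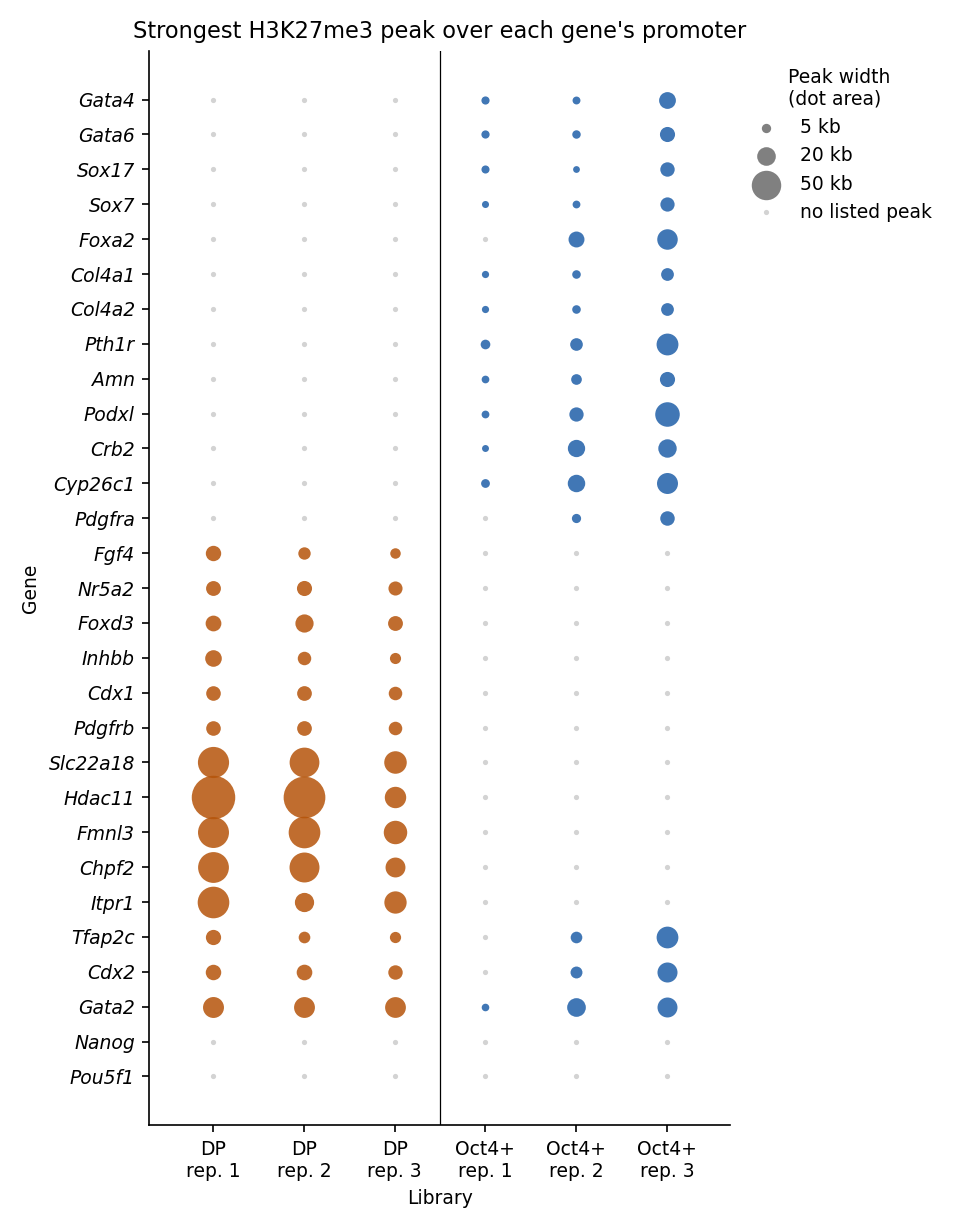
Strongest listed H3K27me3 peak over the promoter of each gene (rows) in each of the 6 libraries (columns), with dot area in proportion to peak width in kb, orange for DP, blue for Oct4+ and a small grey point where no peak was listed. Genes from Gata4 to Pdgfra carry dots in Oct4+ columns only, genes from Fgf4 to Itpr1 in DP columns only, Gata2 in all 6, and Nanog and Pou5f1 in none. Podxl, Crb2 and Cyp26c1, in the first group, belong to neither endoderm list. The widest dots are those of Hdac11 in DP replicates 1 and 2 (109 and 100.2 kb).

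Of 30 endoderm genes for surface proteins, signalling and matrix, 5 were Oct4+ only with all peaks (16.7%, against 0.256% of all genes) and 0 were DP only (against 1.45%). Col4a1, Col4a2, Pth1r and Amn were called in both settings. Lamb1, a laminin chain, was called with all peaks only, and Ihh, a Hedgehog ligand of visceral endoderm, with equal lists only. With all peaks, Ihh was also listed in 2 DP libraries. The Col4a1 and Col4a2 starts face away from each other across a shared promoter, so both calls rest on the same peaks, which spanned 2.99, 4.24 and 9.39 kb (chr8:11312044-11315032 in replicate 1). Pth1r, the receptor for parathyroid hormone-related protein, had high peaks in each list (88th, 150th and 71st by total signal; 5.38, 9.21 and 27.5 kb). Amn, the partner of cubilin in nutrient uptake by visceral endoderm, ranked 413th, 400th and 555th. Without Oct4+ replicate 1 the Oct4+-only count was 8 of 30, against 167 of all 21911 genes. Without Oct4+ replicate 3 there was 1 DP-only member, Fst, against 903 of all genes.

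Pdgfra, on which DP cells were sorted, was listed in 0 of 3 DP and 2 of 3 Oct4+ libraries, with peaks of 4.89 and 12.1 kb, and so did not reach the call. Dab2 and Cubn, endocytic proteins of visceral endoderm chosen after their values were seen, had no listed promoter peak in any of the 6 libraries. Of the 30 members 13 had no listed peak in any library and 1, Rspo3, was listed in all 6. DP libraries listed 2, 5 and 5 of the 30 and Oct4+ libraries 8, 12 and 17.

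The rest of the 16 Oct4+-only genes were Podxl, a sialomucin of apical membranes, Crb2, a Crumbs polarity protein, Cyp26c1, which degrades retinoic acid, and Ccser1, Eva1a, P4ha2 and Lhfpl2. The last 4 fell outside the rule for names and were chosen after their calls were seen. P4ha2 encodes a subunit of the prolyl hydroxylase that modifies collagen. Podxl peaks were 3.48, 11.7 and 34.7 kb wide in Oct4+ replicates 1, 2 and 3, the last covering chr6:31541298-31575957. Cyp26c1 peaks were 4.46, 17.6 and 25.3 kb wide and ranked 565th, 28th and 123rd. At the annotated gene start alone Crb2 was listed in no library.

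Of 25 pluripotency genes, 3 were DP only with all peaks (12.0%, against 1.45% of all genes), Prdm14, Nr5a2 and Fgf4, and 2 with equal list lengths, Nr5a2 and Fgf4. None was Oct4+ only. Fgf4 peaks ranked 1065th of 3798, 1179th of 8672 and 1290th of 6418 in DP replicates 1, 2 and 3, with widths of 13.6, 8.85 and 6.36 kb. Nr5a2 peaks ranked 967th, 770th and 662nd, with widths of 12.7, 13.1 and 11.4 kb. Both were called through a start site other than the annotated start of the gene, at which no library listed a peak. Prdm14, a repressor of differentiation in naive cells, had weaker peaks (2865th, 3719th and 3258th). Esrrb was listed in all 6 libraries, and 17 members, among them Nanog, Pou5f1, Klf4, Zfp42 and Tfcp2l1, in none. The share listed in none was not above that of all genes (16765 of 21911).

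Trophectoderm regulators were marked in both populations. Gata2, Gata3, Tfap2a and Ascl2 were listed in 6 of 6 libraries, and Cdx2 and Tfap2c in 3 DP and 2 Oct4+ libraries, the missing one being Oct4+ replicate 1. Gata2 had wide peaks of 25.3, 25.1 and 24.9 kb in DP and of 3.32, 20.1 and 23.0 kb in Oct4+ libraries. Of 25 members, Bmp4 alone was called (DP only, with all peaks but not with equal lists), which is 4% of the list, against 1.45% of all genes. Elf5, Tead4 and Ets2 were listed nowhere. Eomes, a T-box factor of trophectoderm and endoderm, was listed in 2 libraries of each population.

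Genes of later lineages carried the mark in most libraries of both populations. Over all 21911 genes with all peaks, 938 were listed in all 6 libraries, 16765 in none, 1.45% were DP only and 0.256% Oct4+ only. Among 30 neural regulators, such as Pax6, Neurog1 and Lhx2, 12 were listed in all 6 libraries, 0 in none and 1 was DP only with all peaks. Among 39 Hox genes, 9 were listed in all 6 and 0 were called with all peaks. Of 25 gastrulation genes, 5 were listed in all 6, among them T (Brachyury) and Mesp1, and 1, the homeobox gene Cdx1, was DP only in both settings. The median difference in libraries listed was 1 in each of these 3 lists, against 0 over all genes. With equal list lengths it was 1 over the Hox genes and 0 over the other lists. Without Oct4+ replicate 3, 4 of the 25 gastrulation genes were DP only, against 903 of all 21911 genes. Oct4+ replicate 1, the shortest list, held 12 of the 30 neural and 11 of the 39 Hox genes, whereas Oct4+ replicate 3 held 28 and 39, within or above the DP ranges of 28 to 30 and 34 to 36.

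The Hox clusters showed the same dependence on the library. Peaks covered 79.4, 81.0 and 70.9% of the Hoxa cluster (chr6:52155590-52260880) in DP and 13.9, 51.7 and 81.2% in Oct4+ libraries. The Hoxc cluster was covered by 55.1, 67.6 and 44.6% in DP and by 2.09, 16.9 and 80.6% in Oct4+ libraries. At Hoxb the shares were 44.9, 49.5 and 41.8% in DP and 5.24, 16.2 and 56.0% in Oct4+ libraries, and at Hoxd 75.9, 87.2 and 61.5% against 12.6, 36.4 and 83.0%. Oct4+ replicate 3 exceeded every DP library at Hoxa, Hoxb and Hoxc but not at Hoxd, and Oct4+ replicates 1 and 2 lay under every DP library at all 4 clusters.

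**Figure D4:**
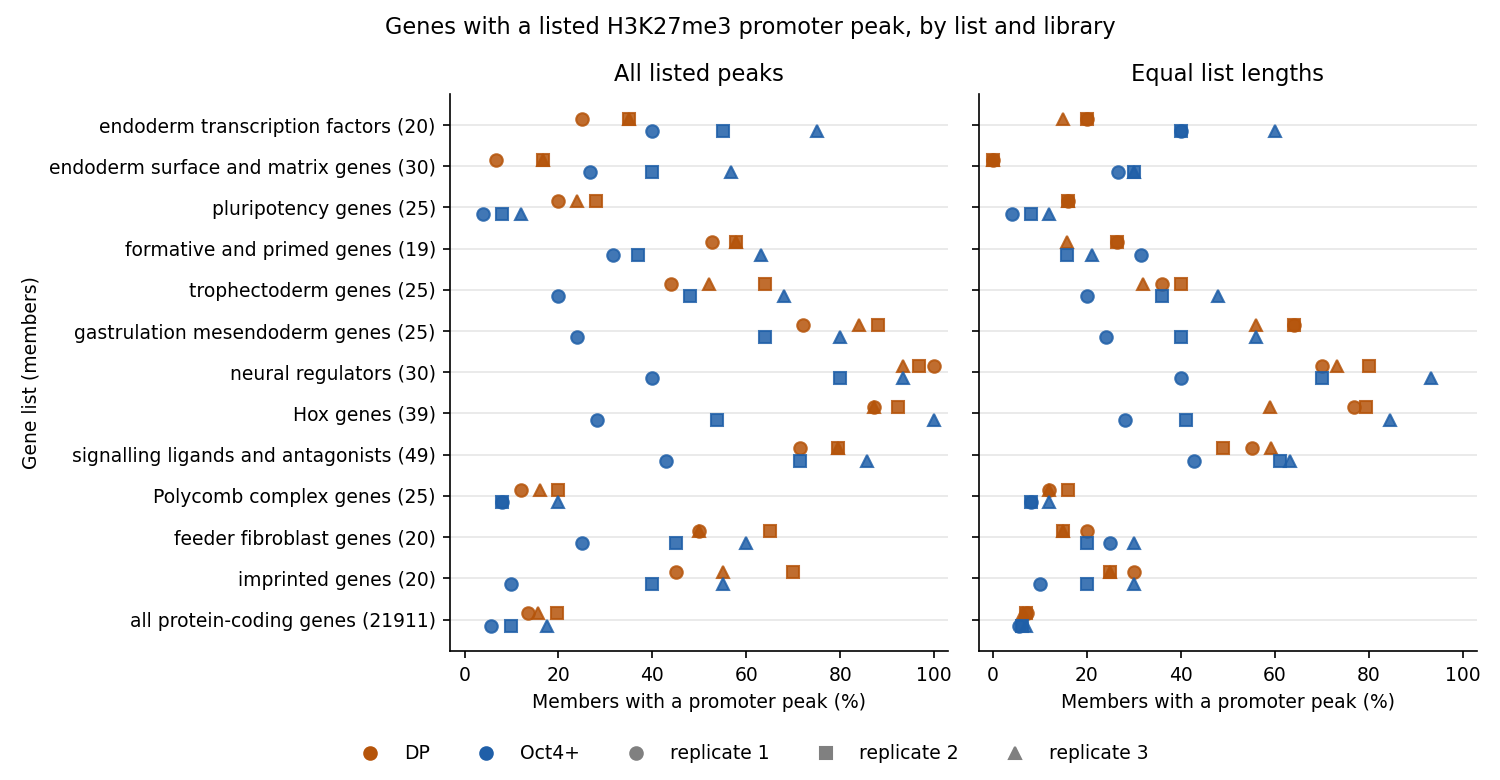
Share of the members of each gene list with a listed H3K27me3 promoter peak (%), in every DP (orange) and Oct4+ (blue) library, shape by replicate, with all peaks (left) and equal list lengths (right). With equal lists the endoderm surface and matrix genes sit at 0 in all 3 DP libraries and at 8 or 9 of 30 in Oct4+ libraries, while neural and Hox genes overlap between populations.

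Signalling genes gave calls in both directions. Of 49 ligands and antagonists of the Wnt, BMP, TGF-beta, FGF and Hedgehog pathways, 17 were listed in all 6 libraries. Inhbb, Fgf4 and Bmp4 were DP only with all peaks, and Inhbb, which encodes an activin subunit, and Fgf4 were so in both settings. The 3 DP-only members are 6.12% of the list, against 1.45% of all genes. Dkk1, an antagonist of Wnt, was Oct4+ only with all peaks (2.04% of the list, against 0.256% of all genes). Ihh, Sfrp2 and Fgf3 were Oct4+ only with equal lists (6.12% of the list, against 0.607% of all genes). With all peaks, however, Sfrp2 was listed in 3 DP libraries, and Ihh and Fgf3 in 2 each. Among 19 formative genes Foxd3 alone was called, DP only in both settings (5.26% of the list, against 1.45% of all genes with all peaks). Its peaks were 14.3, 19.1 and 12.7 kb wide, and within 2.5 kb on either side of its start 1 Oct4+ library also listed a peak. Without Oct4+ replicate 3, 4 of the 19 formative genes were DP only, against 903 of all 21911 genes. Of 25 genes of the Polycomb machinery, 19 were listed nowhere, 0 were called, and 1, Phf19, was listed in all 6. The shares listed nowhere and in all 6 were close to those of all 21911 genes, at 16765 and 938.

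Of 20 imprinted genes in the annotation, Slc22a18 was DP only in both settings and Peg10 with all peaks (10% of the list, against 1.45% of all genes), and 0 were Oct4+ only. By gene body Slc22a18 was not called, with peaks in 3 DP and 2 Oct4+ libraries. Of 20 genes of fibroblasts, the cell type of the feeders, Pdgfrb was DP only in both settings, sharing its peaks with the neighbouring Cdx1. Meox2 was Oct4+ only with all peaks. Each is 5% of the list, against 1.45% (DP only) and 0.256% (Oct4+ only) of all genes with all peaks. Pdgfrb was listed in 1 of 3 DP libraries when 50% of a promoter had to be covered. Without Oct4+ replicate 3, 3 of the 20 fibroblast genes were DP only, against 903 of all 21911 genes.

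By mean rank of total signal within their own lists, the first 10 DP-only genes were Chpf2, Fmnl3, Slc22a18, Hdac11, Mroh2a, Creld1, Itpr1, St3gal4, Mylk2 and Asb10. Total signal is summed over the bases of a peak, so this order favours wide peaks by construction. Hdac11, a histone deacetylase, had the strongest peak of all in DP replicates 1 and 2, with widths of 109 and 100.2 kb, and ranked 113th in replicate 3 with 26.4 kb. Fmnl3, a formin of the actin cytoskeleton, ranked 17th, 7th and 24th, with 55.2, 57.7 and 31.7 kb. Slc22a18, an imprinted transporter gene, ranked 21st, 21st and 43rd. At the annotated gene start alone, no library listed Chpf2, Itpr1 or St3gal4.

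Merged over the 6 lists, peaks formed 9828 regions, of which 708 were DP only, 68 Oct4+ only and 1121 were listed in all 6. DP-only regions overlapped a promoter in 49.6% of cases and lay outside genes in 31.9%, whereas 88.2% of the Oct4+-only regions and 92.8% of the regions in all 6 overlapped a promoter. Of all 9828 regions 51.4% overlapped a promoter and 30.9% lay outside genes, shares close to those of the DP-only regions. The gap was smaller with equal list lengths, with 76.7% of the DP-only and 84.7% of the Oct4+-only regions over a promoter. With all peaks, median widths were 14247.5 bases for DP-only regions, 7614.5 for Oct4+-only regions and 15516 for regions in all 6. DP-only regions held a median of 12.7 CG dinucleotides per kb (quartiles 10.4 and 16.5), Oct4+-only regions 21.6 (18.4 and 28.7) and regions in all 6 libraries 19.7 (16.7 and 23.6), against 8.26 in the genome. With equal list lengths 279 regions were DP only, 177 Oct4+ only and 519 in all 6, with 14.9, 20.6 and 19.7 CG dinucleotides per kb. With all peaks, repeats made up a median of 21.4% of the DP-only and 15.6% of the Oct4+-only regions. The median was 17.0% in regions listed in all 6, and repeats made up 36.4% of the genome. Without Oct4+ replicate 1 there were 241 Oct4+-only regions, and without DP replicate 1 there were 1673 DP-only regions. The counts were 104 Oct4+-only regions without DP replicate 2 and 1420 DP-only regions without Oct4+ replicate 3.

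Among the widest regions, DP-only domains of 61.0 kb overlapped Ndst1 and Rps14, of 59.0 kb Fmnl3 (chr15:99318799-99377784), of 57.7 kb Mical3 (chr6:121124427-121182144), of 57.6 kb Itpr1 (chr6:108442764-108500352) and of 57.5 kb Tbxas1 (chr6:38910125-38967589). The widest Oct4+-only region, of 54.8 kb, held Gadd45g, a stress-response gene (chr13:51830854-51885677), and was 3.06, 30.25 and 54.8 kb wide in Oct4+ replicates 1, 2 and 3. Those of Podxl, Pth1r with Myl3, Creb3l1 and Foxn3 followed, with 34.7, 27.5, 26.9 and 23.6 kb. Width depended on the library: over the 938 shared genes, the median width of the strongest promoter peak was 11944.5, 10306 and 7353 bases in DP and 3211, 5243 and 11206 bases in Oct4+ libraries.

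H3K27ac marks active promoters and enhancers, and H3K4me1 marks enhancers and their surroundings. Both were read from other libraries of the same populations, which took no part in the calls. With equal list lengths, H3K27ac was listed at 20, 10 and 15 of the 56 Oct4+-only promoters in DP libraries and at 1 of 56 in each Oct4+ library. These are 26.8% ± 8.93 and 1.79% ± 0 (SD, n = 3 each), without overlap, against 12.3% ± 0.374 and 8.28% ± 0.483 of all genes. At the 16 genes called in both settings the counts were 10, 6 and 9 in DP and 0, 0 and 0 in Oct4+ libraries. With all peaks the populations overlapped, at 44.6% ± 23.2 and 30.4% ± 26.3, in H3K27ac lists that ran from 3079 to 65131 peaks. The shares of all genes were then 28.6% ± 14.5 and 37.3% ± 16.3. Equal list lengths for these marks were added after the data had been seen.

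H3K4me1 at the 56 Oct4+-only promoters was listed at 9, 20 and 13 in DP and 8, 6 and 2 in Oct4+ libraries with equal lists, 25% ± 9.94 and 9.52% ± 5.46. At the 16 genes called in both settings the populations overlapped. The counts there were 4, 10 and 7 in DP and 5, 3 and 2 in Oct4+ libraries. The 317 DP-only promoters ran the other way. H3K4me1 was listed at 4.31% ± 1.42 of them in DP and 12.3% ± 5.01 in Oct4+ libraries, without overlap, against 5.12% ± 2.40 and 4.30% ± 1.04 of all genes. H3K27ac was listed at 3.47% ± 1.45 and 6.10% ± 2.10 of them, with overlap. With all peaks the populations overlapped at both groups and for both marks: H3K4me1 was at 12.2% ± 8.06 and 21.7% ± 15.8 of the DP-only promoters and at 33.9% ± 17.9 and 21.4% ± 15.6 of the Oct4+-only promoters. H3K27ac was then at 12.9% ± 10.2 and 36.6% ± 25.3 of the DP-only promoters, against 28.6% ± 14.5 and 37.3% ± 16.3 of all genes. For H3K4me1 the shares of all genes with all peaks were 11.2% ± 7.76 in DP and 9.16% ± 7.16 in Oct4+ libraries. H3K9me3, a mark of heterochromatin, was listed with equal lists at 4.52% ± 0.794 of the DP-only promoters in DP and 3.58% ± 1.11 in Oct4+ libraries. The shares of all genes were 2.12% ± 0.213 and 1.72% ± 0.255.

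**Figure D5:**
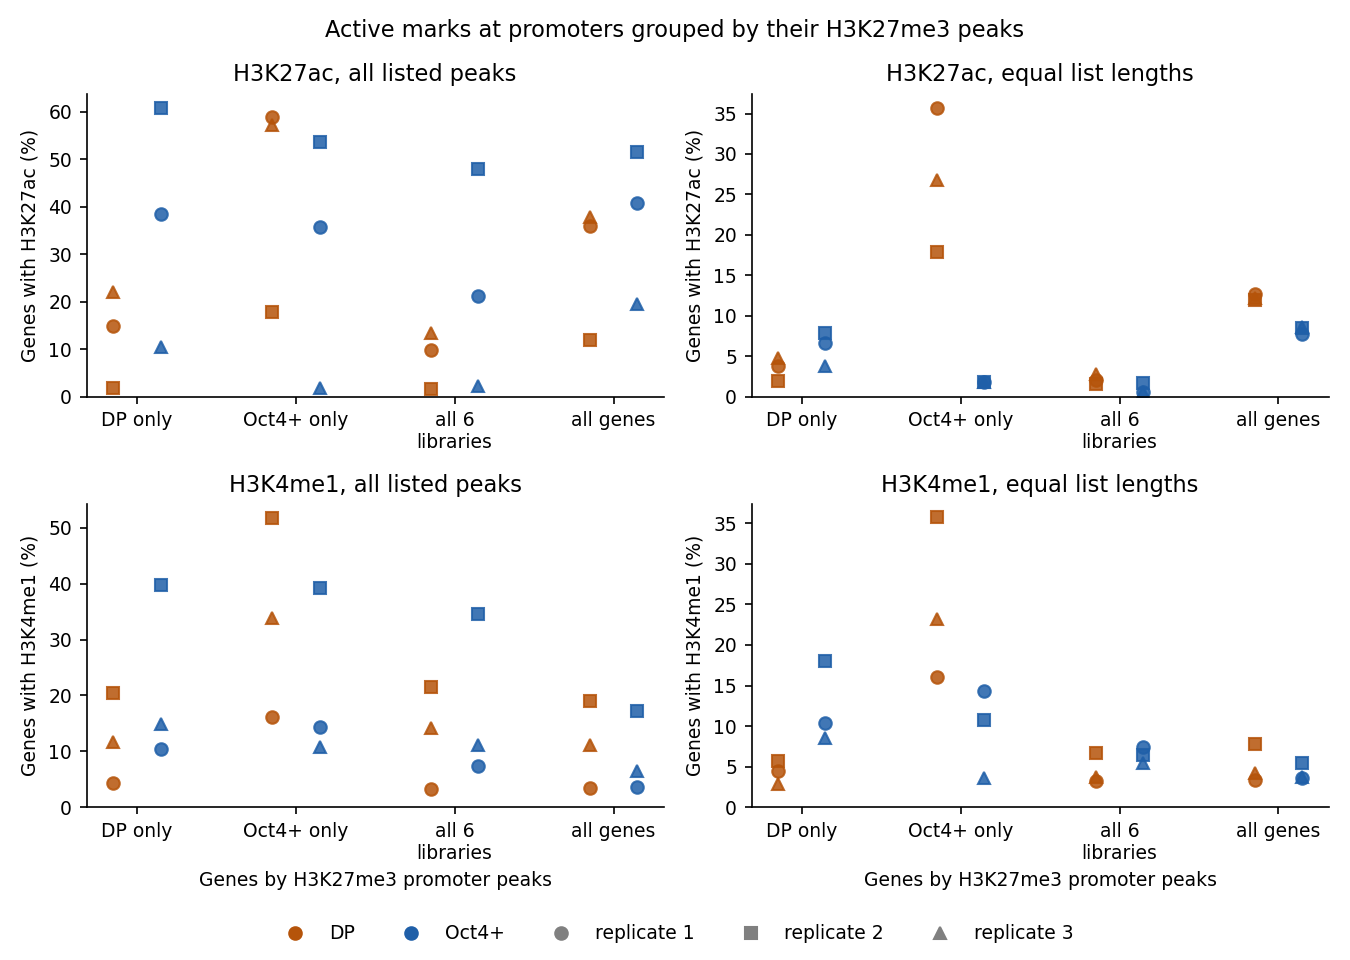
Share of genes with a listed H3K27ac (top) or H3K4me1 (bottom) promoter peak (%) in each DP (orange) and Oct4+ (blue) library, shape by replicate, for genes grouped by H3K27me3 as DP only, Oct4+ only, listed in all 6 libraries, and all genes, with all peaks (left) and equal list lengths (right). With equal lists, H3K27ac at Oct4+-only genes is at 1.79% in all 3 Oct4+ libraries and at 17.9% or more in all 3 DP libraries.

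Pth1r had H3K27ac at the promoter in 3 of 3 DP and 0 of 3 Oct4+ libraries in both settings. Col4a1 and Gata6 each had it in 3 DP and 2 Oct4+ libraries with all peaks, and in 3 and 0 with equal lists. Other Oct4+-only genes showed little or no such contrast. Sox17 had H3K27ac in 2 DP and 2 Oct4+ libraries with all peaks, Amn in 1 and 1, and Crb2 in 2 and 1. With equal lists the counts were 0 and 0 at Sox17 and Crb2, and 1 and 0 at Amn. Cyp26c1 had no listed H3K27ac in either setting. At Fgf4 the counts were 0 DP and 3 Oct4+ libraries with all peaks and 0 and 1 with equal lists. At Nr5a2 they were 0 and 2 with all peaks and 0 and 0 with equal lists. Nanog, with no listed H3K27me3 peak, had H3K27ac in 0 DP and 3 Oct4+ libraries, and Pou5f1 in 1 and 3, in both settings.

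The sorted identities were checked with markers of each cell type, read as promoter peaks. Of 8 pluripotency markers, 7, 7 and 6 carried H3K27ac in Oct4+ and 3, 1 and 1 in DP libraries, where Nanog, Sox2 and Esrrb were absent. Of 8 endoderm markers, 8, 4 and 8 carried H3K27ac in DP and 3, 6 and 0 in Oct4+ libraries, and 6, 4 and 5 against 0, 0 and 0 with equal lists. H3K27ac was listed at 0 of 8 fibroblast markers in every DP library and at 1, 2 and 0 in Oct4+ libraries, and H3K27me3 at 5, 6 and 5 in DP and 0, 3 and 5 in Oct4+ libraries. The part of feeder cells in the calls was not tested.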

How the data were processed

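The authors sequenced CUT&Tag libraries and deposited 1 peak list per library, called with SEACR in its stringent mode against IgG. The submitters' processing notes name the mm10 build, Bowtie2, SAMtools 1.12, bcl2fastq 2.19.1, deepTools, SEACR and bedtools 2.26.0. The deposited values are signal (coverage summed over the bases of a peak, and its maximum) in whole numbers, treated here as unscaled. The normalization setting of the peak caller and the IgG library used for each list are not given in the sources. The number of reads per library is not given in the sources, so no test of signal between libraries was made.

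Peaks were overlapped with GENCODE M21 protein-coding genes (GRCm38) with pandas 2.3.3 and NumPy 2.4.6 under Python 3.11.15. Tests used SciPy 1.17.1, plots used Matplotlib 3.10.9, and overlaps were checked against bedtools 2.31.1. Promoter sequences came from RefSeq (GRCm38.p6). Calls need a peak in 3 of 3 libraries of a population and 0 of 3 of the other, and were tested on simulated data. Measures per library were compared by exact permutation over 20 assignments, with Benjamini-Hochberg adjustment over 6 measures. Each p-value is the share of assignments with a difference of means at least as large as that seen. It rests on these libraries alone, whose origin in separate cultures is not stated. The labels do not say whether the same replicate number marks paired libraries. Correlations of deviations with all peaks were -0.0454, -0.0340 and 0.0954 for the same numbers and -0.117 to 0.155 for other pairs. These values cannot show whether libraries were paired.

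The members, the gene lists and the tests were chosen with earlier results of these data known. Genes were named where a list member was called in both settings, where a gene was among the 10 with the highest mean percentile of peak signal in its direction, where the study discusses or sorts on it, or where it lay in 1 of the 5 widest regions of a direction. Some genes that the rule covers are not reported here by name. All other genes named were chosen after their values were seen. H3K27ac, H3K4me1 and H3K9me3 lists of the same populations (18 libraries) were read at the called genes. The 3 IgG samples and the lists of cells positive for PDGFRA alone were not used here.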

Additional observations from a re-analysis of the deposited data

How the results depend on the processing

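Across alternatives, 74 values of gene lists and named genes moved and 594 did not. Among measures of libraries and counts over all genes and regions, 27 counts of calls moved by over 1.5 times and 1 measure reversed. The other 101 values kept their direction, and for counts of calls stayed within 1.5 times, but measures per library could change in size: with equal lists the DP minus Oct4+ difference in genes with a promoter peak was 140 (1154 with all peaks), in genes with a gene body peak 137.7 (1335), in covered length 12.6 Mb (30.4 Mb) and in median width 6820 bases (2539 bases), and without DP replicate 1 the last was 598 bases. With equal list lengths the share of peaks over a promoter reversed to 0.225 percentage points, Oct4+-only promoters numbered 133, gene bodies 260 (DP only) and 161 (Oct4+ only), and regions 279 and 177, while peaks per library are constant by construction. With the top 50% of each list there were 37 Oct4+-only promoters, 37 Oct4+-only gene bodies, and 394 DP-only and 43 Oct4+-only regions. With 10% of the gene body covered, 17 genes were Oct4+ only. With 2 of 3 libraries enough, promoters numbered 691 and 174, gene bodies 830 and 190 and regions 1789 and 254 (DP only and Oct4+ only). Leaving out 1 library at a time gave 317 to 903 DP-only and 56 to 167 Oct4+-only promoters, 406 to 1041 and 57 to 182 gene bodies, and 708 to 1673 and 71 to 241 regions, a rise that follows from a rule with fewer libraries. With the replicate block (a sign-flip exact permutation test, smallest p = 0.25) the difference in peaks per library was 2842 (p = 0.25). The block was run only on measures per library, none of which could pass the threshold under it. Depth limits the absence of a peak, which does not show absence of the mark.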

Other observations

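Chromosome X held few listed H3K27me3 peaks in either population. Its share of all peaks was 0.421, 0.75 and 0.499% in DP and 0.246, 0.441 and 1.31% in Oct4+ libraries, so the populations overlapped. Of its 948 protein-coding genes 1 was called DP only by promoter (0.105%, against 1.45% of all genes) and 0 were called Oct4+ only (against 0.256% of all genes).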
